A study of Mus musculus with 12 samples.

Results

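The unfolded protein response and the integrated stress response were followed through 36 genes, taken by symbol from a table of 22537 gene symbols counted in mouse liver. Of these, 23 encode the chaperones, disulfide isomerases, degradation factors and sensors of the endoplasmic reticulum (ER) that are linked to ATF6 and XBP1, and 13 encode factors linked to ATF4, such as the enzymes of amino acid supply. All 36 were in the table and all 36 passed the filter on low counts, which kept 13968 genes. The livers came from female C57BL/6 mice aged 6 months, each of which had eaten a high-fat diet for 13 weeks, with 3 mice in each of 4 genotypes and 1 library per mouse. ARNT KO mice had lost the aryl hydrocarbon receptor nuclear translocator (ARNT) in the liver, ARNT Flox mice carried the floxed Arnt gene, AHR KO mice had lost the aryl hydrocarbon receptor (AHR) in the liver, and AHR Flox mice carried the floxed Ahr gene. Every group shared the diet, so no group on normal chow bears on the values. The sources used here do not give the recombinase, the promoter that drives it or the floxed exons.

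When unfolded protein collects in the ER, 3 sensors respond: ATF6 is cut to release a transcription factor, IRE1 (gene Ern1) splices the Xbp1 message, and PERK (gene Eif2ak3) phosphorylates the translation factor eIF2-alpha. ATF6 and XBP1 raise the genes of folding, secretion and disposal, whereas PERK and other eIF2-alpha kinases slow translation in general and favour the translation of ATF4, which raises genes of amino acid supply and of recovery. Hepatocytes secrete large amounts of plasma protein and have a well developed ER. ARNT, the dimer partner of AHR, also pairs with the hypoxia-inducible factors.

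Libraries held 23585909 to 33255004 counts, and 3 counts, the most that a reading of 0 leaves possible, were worth 0.0861 to 0.126 CPM (each count as a share of its scaled library total). Arnt was at 25.2, 23.9 and 19.0 CPM in ARNT KO, against 47.8, 52.5 and 50.3 CPM in ARNT Flox, a log2 change of −1.15 ± 0.12 SE (adjusted p = 0.00601 by edgeR's quasi-likelihood test). In libraries with the AHR KO label, Ahr did not fall: it was at 84.4, 94.8 and 80.3 CPM, against 53.9, 78.8 and 72.4 CPM in AHR Flox (log2 change 0.34 ± 0.17, adjusted p = 0.470). Counts per gene do not separate exons, so this value does not check the label, and every direction drawn below from AHR KO rests on that label. ARNT KO replicate 3 stood apart on the leading principal component, at 65.3, against −30.9 to 30.3 for the other libraries. It held 5740 CPM of albumin (Alb), against 51926 and 53685 CPM in ARNT KO replicates 1 and 2. Albumin was also at 7089, 5491 and 6352 CPM in AHR KO, against 78433, 89275 and 84389 CPM in AHR Flox (log2 change −3.74 ± 0.66, adjusted p = 0.0629). In these bulk samples, fewer cells of a type and less RNA per cell cannot be told apart.

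Averaged over the 12 libraries and divided by the exon length of each gene, the folding genes were the abundant members. P4hb, a protein disulfide isomerase, led with 478 CPM per kb, followed by the chaperone Hsp90b1 with 290 CPM per kb, the membrane protein of ER-associated degradation Herpud1 with 266, the calcium-binding chaperone Calr with 226, the chaperone Hspa5 (BiP) with 126 and the isomerase Pdia3 with 123. Atf5, a transcription factor whose message is favoured when eIF2-alpha is phosphorylated, was the most abundant gene linked to ATF4, at 113 CPM per kb. The enzymes of serine and asparagine synthesis were at the low end, with 0.222 CPM per kb for Psat1, 0.179 for Phgdh and 0.101 for Asns. Asns was counted 3 to 14 times per library, close to that bound. Its changes, and those of Phgdh with 3 to 28 counts, are therefore known poorly.

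**Figure D1:**
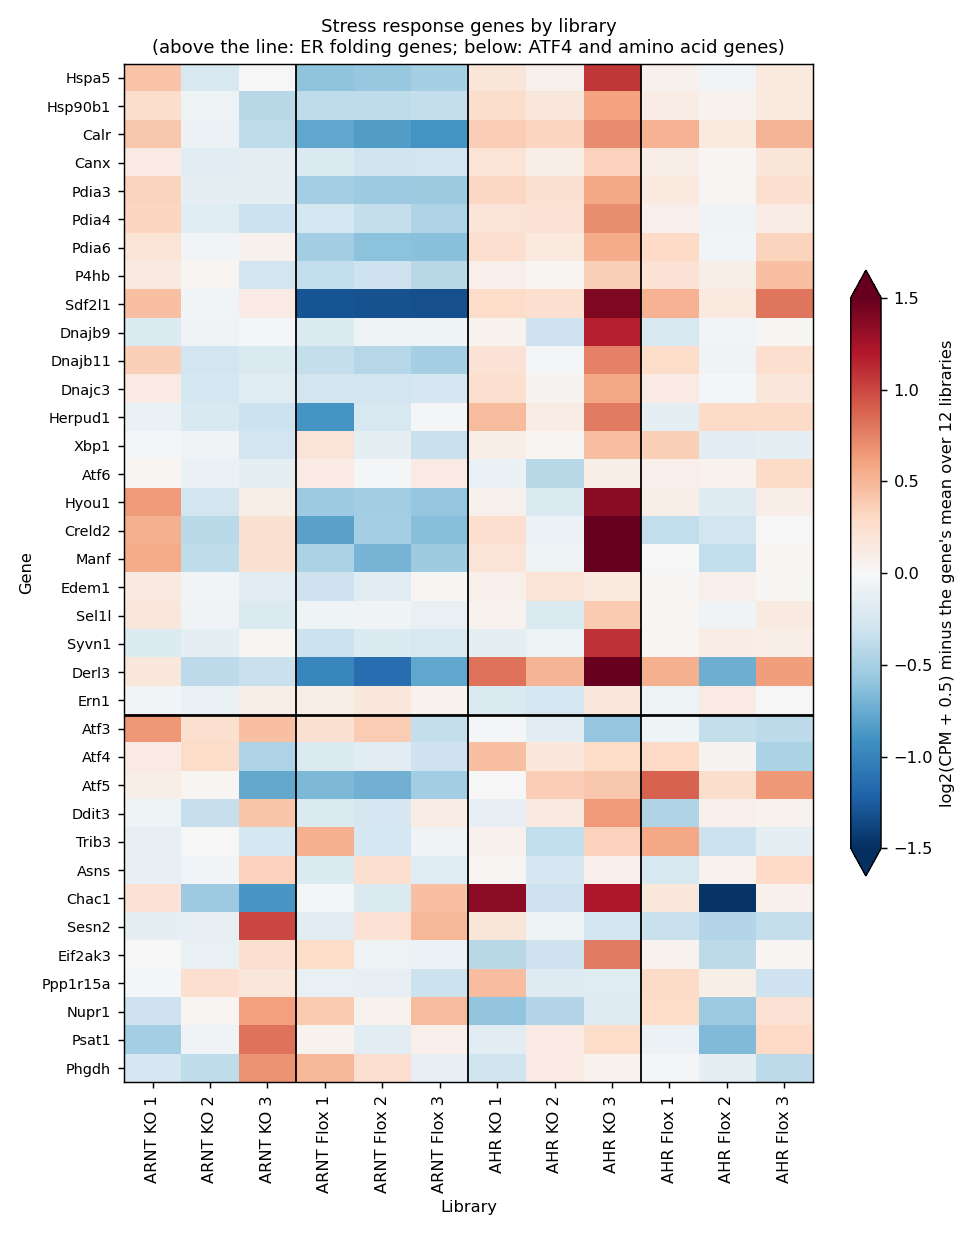
Deviation of each of the 36 genes, in log2(CPM + 0.5), from its own mean over 12 libraries (colour), with genes as rows and libraries as columns grouped as ARNT KO, ARNT Flox, AHR KO and AHR Flox. The ER folding genes above the horizontal line are mostly blue in the 3 ARNT Flox libraries and mostly red in AHR KO replicate 3, while the ATF4 and amino acid genes below it show no such block.

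The ER folding genes shifted together by library. Their median deviation from the mean of 12 libraries was 0.17, −0.13 and −0.14 log2 units in ARNT KO, −0.37, −0.35 and −0.41 in ARNT Flox, 0.20, 0.04 and 0.70 in AHR KO, and 0.09, −0.03 and 0.15 in AHR Flox. All 3 ARNT Flox libraries lay below the other 9, and AHR KO replicate 3 lay above the other 11. The lowest of the 12 values was in an ARNT Flox library for 18 of the 23 genes, and the highest was in AHR KO replicate 3 for 19 of them. Counts of the highest or lowest library, here and below, were not made over all genes, so their background is not known. For the 13 genes linked to ATF4 the medians were −0.06, −0.04 and 0.34 in ARNT KO, −0.03, −0.12 and −0.08 in ARNT Flox, −0.01, −0.17 and 0.27 in AHR KO, and 0.05, −0.32 and 0.03 in AHR Flox. These did not separate the groups. The ER genes varied least among ARNT Flox mice, with a median coefficient of variation of 14.6% in ARNT KO, 4.09% in ARNT Flox, 20.8% in AHR KO and 9.15% in AHR Flox. Over all genes tested it was 15.1%, 8.34%, 10.8% and 9.80% in the same groups.

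**Figure D2:**
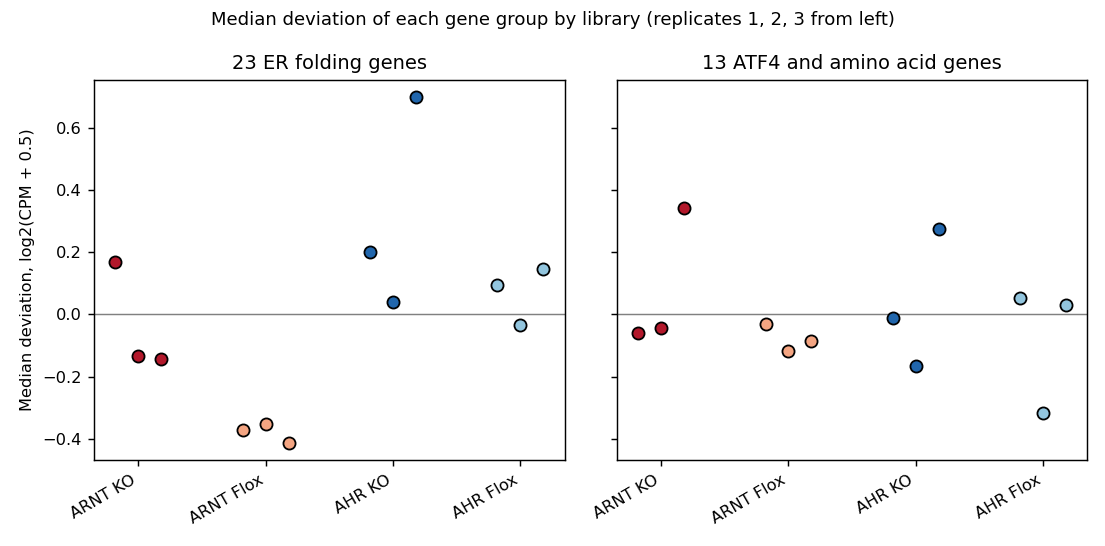
Median deviation over the 23 ER folding genes (left) and the 13 ATF4 and amino acid genes (right), in log2(CPM + 0.5) units on the vertical axis, for replicates 1, 2 and 3 of each genotype on the horizontal axis. On the left the 3 ARNT Flox points lie at −0.41 to −0.35, below all others, and AHR KO replicate 3 lies at 0.70, above all others.

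The clearest difference among these genes was between the control lines. In ARNT Flox livers, 3 ER folding genes and 1 gene linked to ATF4 fell against AHR Flox livers: the chaperone Calr, the isomerase Pdia6, the Hspa5 complex member Sdf2l1 and the transcription factor Atf5. No member rose. Of all genes tested, 0.329% passed the same threshold of an adjusted p under 0.05 (46 genes). Log2 changes were below 0 for 22 of the 23 ER genes, with a median of −0.47, against −0.00 over all genes tested. At an unadjusted p under 0.05 there were 13 of the 23, all lower, where 19.9% of all genes were past that mark in either direction. For 17 of the 23, all 3 ARNT Flox libraries lay below all 3 AHR Flox libraries, and for 0 they lay above. Among all genes, 17.7% had that lower arrangement and 18.1% the higher one. The floxed gene and the mouse line that carries it cannot be told apart in this comparison. The count of 4 members fell to 0 when any of ARNT Flox replicates 1, 2 and 3 or AHR Flox replicates 1 and 3 was left out. In those fits 0.0848% to 0.113% of all genes were called. The count was 9 without ARNT KO replicate 3, where 10.9% of all genes were called.

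Sdf2l1 works with the co-chaperone Dnajb11 in a complex with Hspa5. It was at 3.75, 3.73 and 3.69 CPM in ARNT Flox, against 14.4, 11 and 17.6 CPM in AHR Flox. The 3 ARNT Flox values were nearly equal and far below the lowest AHR Flox value, so the groups did not overlap (3.85-fold lower, log2 change −1.94 ± 0.31 SE, adjusted p = 0.0307). Calr, calreticulin, a lectin chaperone that binds calcium and folds glycoproteins, was at 268, 258 and 247 CPM in ARNT Flox, against 664, 512 and 659 CPM in AHR Flox. Again no ARNT Flox library reached the lowest AHR Flox library (2.37-fold lower, log2 change −1.25 ± 0.19, adjusted p = 0.0273). Pdia6, an isomerase that forms disulfide bonds and binds Hspa5, was at 123, 114 and 114 CPM in ARNT Flox, against 216, 171 and 223 CPM in AHR Flox. The groups did not overlap here either (1.73-fold lower, log2 change −0.79 ± 0.13, adjusted p = 0.0307). Replicates of the same number deviated together between these lines, most in replicate 1 (r = 0.327, 0.153 and 0.101 for replicates 1, 2 and 3). A fit with the replicate number as a block was therefore also made. It placed the block on all 12 libraries, knockouts included, and the sample titles give a replicate number but no pairing. With that block Sdf2l1 (adjusted p = 0.0286), Calr (0.0472) and Pdia6 (0.0293) still passed and Atf5 did not (0.0876). Over all 21 alternatives the adjusted p ran from 3.64e-07 to 0.162 for Sdf2l1, from 1.31e-07 to 0.142 for Calr, from 4.38e-06 to 0.167 for Pdia6 and from 1.47e-05 to 0.219 for Atf5.

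**Figure D3:**
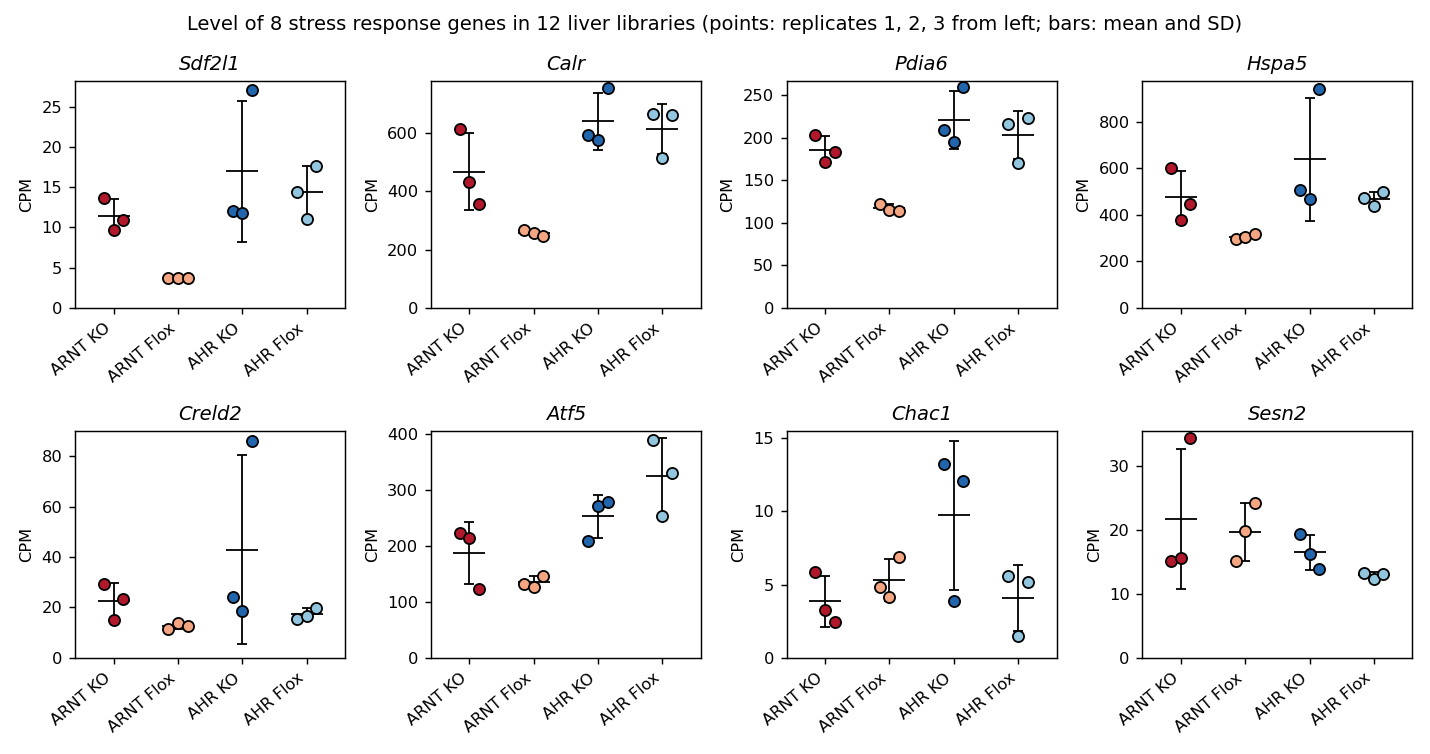
CPM (vertical axes, from 0) of 8 genes in ARNT KO, ARNT Flox, AHR KO and AHR Flox, with 1 point per library and lines for the mean and SD (n = 3). Sdf2l1, Calr and Pdia6 are lowest in all 3 ARNT Flox libraries, Creld2 and Hspa5 are highest in AHR KO replicate 3, and Sesn2 is highest in ARNT KO replicate 3 at 34.4 CPM.

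The promoters of these genes differ in whether they hold the ER stress response element, a pair of boxes (CCAAT, any 9 bases, CCACG) known as the site that ATF6 binds together with the factor NF-Y. The 250 bases before the start of Hspa5, Calr, Pdia6 and Sdf2l1 are shown because Hspa5 is the textbook target and the others carried the calls between the control lines; Chac1 is shown for the ATF4 element described below. Sequences are from RefSeq, build GRCm38.p6, read 5′ to 3′ on the strand of the gene, and capitals mark a match to an element on either strand. Hspa5 lies at chr2:34772090-34776529, and its window, chr2:34771840-34772089 on the plus strand, held a match from 65 to 47 bases before the start. Calr lies at chr8:84842088-84846931, and its window, chr8:84846932-84847181 on the minus strand, held a match on the opposite strand from 162 to 144 bases before the start. Pdia6 lies at chr12:17266589-17284785, and its window, chr12:17266339-17266588 on the plus strand, held a match from 98 to 80 bases before the start. Sdf2l1 lies at chr16:17130138-17132383, and its window, chr16:17132384-17132633 on the minus strand, held no exact match. Chac1 lies at chr2:119351242-119354326, and its window, chr2:119350992-119351241 on the plus strand, held the ATF4 element on the opposite strand from 193 to 186 bases before the start.
Hspa5: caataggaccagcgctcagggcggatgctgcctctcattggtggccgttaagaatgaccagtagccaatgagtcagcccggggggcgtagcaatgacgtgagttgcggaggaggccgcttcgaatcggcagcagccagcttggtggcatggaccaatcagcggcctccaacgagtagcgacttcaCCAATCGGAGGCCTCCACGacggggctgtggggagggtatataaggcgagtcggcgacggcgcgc
Calr: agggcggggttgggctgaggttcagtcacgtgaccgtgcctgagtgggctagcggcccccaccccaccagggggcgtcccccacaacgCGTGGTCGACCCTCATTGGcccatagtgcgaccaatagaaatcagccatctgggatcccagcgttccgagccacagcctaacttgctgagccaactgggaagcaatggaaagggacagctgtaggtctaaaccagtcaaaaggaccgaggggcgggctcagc
Pdia6: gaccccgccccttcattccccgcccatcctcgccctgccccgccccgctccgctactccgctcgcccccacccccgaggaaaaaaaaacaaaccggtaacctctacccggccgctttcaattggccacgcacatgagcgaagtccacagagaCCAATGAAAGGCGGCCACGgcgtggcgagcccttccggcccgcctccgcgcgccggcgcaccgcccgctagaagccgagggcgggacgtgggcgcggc
Sdf2l1: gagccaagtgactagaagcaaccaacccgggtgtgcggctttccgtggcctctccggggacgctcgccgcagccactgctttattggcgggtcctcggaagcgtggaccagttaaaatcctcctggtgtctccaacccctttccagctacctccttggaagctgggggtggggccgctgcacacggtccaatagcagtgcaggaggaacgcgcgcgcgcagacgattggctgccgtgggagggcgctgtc
Chac1: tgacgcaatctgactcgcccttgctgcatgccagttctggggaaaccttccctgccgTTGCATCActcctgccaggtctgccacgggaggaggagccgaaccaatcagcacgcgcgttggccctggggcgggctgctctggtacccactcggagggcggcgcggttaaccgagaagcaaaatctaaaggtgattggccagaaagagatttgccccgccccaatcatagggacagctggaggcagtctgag

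Promoter entries were found for 33 of the 36 genes, and Manf, Hyou1 and Atf6 had no match. The ER stress response element, searched on both strands, was present in 9 of the 20 ER genes with an entry (Hspa5, Hsp90b1, Calr, Canx, Pdia6, Dnajc3, Creld2, Syvn1 and Derl3) and in 0 of the 13 genes linked to ATF4. Of 32851 promoter windows of the same length, 0.113% held it. A second form (ATTGG, any base, CCACG) was in Herpud1 alone among the members and in 0.0304% of windows. The ATF4 composite element (TGATGNAA) was in Herpud1 and in 4 of the 13 genes linked to ATF4 (Atf3, Asns, Chac1 and Nupr1), and in 3.45% of windows. A match of letters is a description of these windows, and no match says only that the letters are not there. In the comparison of the control lines, all 9 ER genes with the element and 6 of the 11 without it had every ARNT Flox library below every AHR Flox library, with median log2 changes of −0.47 and −0.41. In ARNT KO against ARNT Flox, 7 of the 9 with it and 4 of the 11 without it had every ARNT KO library above every ARNT Flox library, with medians of 0.64 and 0.13. Over all genes, 17.7% had the first arrangement and 5.94% the second. The same 3 ARNT Flox libraries enter both comparisons, so the second is not independent of the first. The difference between the sets was not tested.

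Beyond the called genes, the folding machinery was lower in ARNT Flox than in AHR Flox across its roles without passing the threshold. Hspa5, the chaperone that holds the 3 sensors inactive, was at 296, 303 and 318 CPM in ARNT Flox, against 471, 436 and 497 CPM in AHR Flox (log2 change −0.61 ± 0.24, adjusted p = 0.207). Pdia3, the isomerase that partners Calr on glycoproteins, was at 232, 227 and 228 CPM in ARNT Flox, against 364, 334 and 394 CPM in AHR Flox (−0.67 ± 0.14, adjusted p = 0.0773). P4hb was at 1041, 1084 and 1011 CPM in ARNT Flox, against 1558, 1428 and 1838 CPM in AHR Flox (−0.62 ± 0.15, adjusted p = 0.0970). None of these 3 genes overlapped between the lines, and all 4 isomerases had that arrangement. Derl3, a channel-like protein of ER-associated degradation with few counts, was at 0.447, 0.344 and 0.587 CPM in ARNT Flox, against 2.18, 0.615 and 2.36 CPM in AHR Flox (−1.91 ± 0.55, adjusted p = 0.135). The groups did not overlap, though AHR Flox replicate 2 lay just above the highest ARNT Flox value. Hsp90b1, which folds secreted and membrane proteins, was at 614, 616 and 626 CPM in ARNT Flox, against 861, 832 and 882 CPM in AHR Flox (−0.47 ± 0.17, adjusted p = 0.176). Canx, the membrane-bound relative of Calr, was at 326, 305 and 310 CPM in ARNT Flox, against 402, 378 and 424 CPM in AHR Flox (−0.35 ± 0.10, adjusted p = 0.140). Neither gene overlapped. The isomerase Pdia4 (−0.41 ± 0.17) and the co-chaperones Dnajb11 (−0.60 ± 0.20) and Dnajc3 (−0.36 ± 0.14), which serve Hspa5, did not overlap either, with adjusted p of 0.225, 0.170 and 0.207. The stress-induced proteins Hyou1 (−0.56 ± 0.35), Creld2 (−0.45 ± 0.48) and Manf (−0.47 ± 0.36) had the same arrangement, with wide errors.

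Values for the sensors and the remaining degradation genes between the control lines were as follows. Herpud1 was at 269, 421 and 490 CPM in ARNT Flox, against 454, 609 and 610 CPM in AHR Flox (log2 change −0.50 ± 0.22, adjusted p = 0.241), with overlap. Xbp1, counted without regard to splicing, was at 181, 145 and 126 CPM in ARNT Flox, against 203, 142 and 144 CPM in AHR Flox (log2 change −0.11 ± 0.18, adjusted p = 0.751). Atf6 (−0.07 ± 0.12) and Ern1 (0.09 ± 0.12), the sensor genes, and Dnajb9 (−0.04 ± 0.29), a co-chaperone known to restrain IRE1, also overlapped between the lines. Edem1 (−0.19 ± 0.10), a lectin that sends misfolded glycoproteins to degradation, and Sel1l (−0.12 ± 0.14), the adaptor of the ubiquitin ligase Syvn1, were close to 0. Syvn1 itself was at 48.0, 51.8 and 50.6 CPM in ARNT Flox, against 61.3, 64.6 and 64.4 CPM in AHR Flox (−0.34 ± 0.26), with no overlap.

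**Figure D4:**
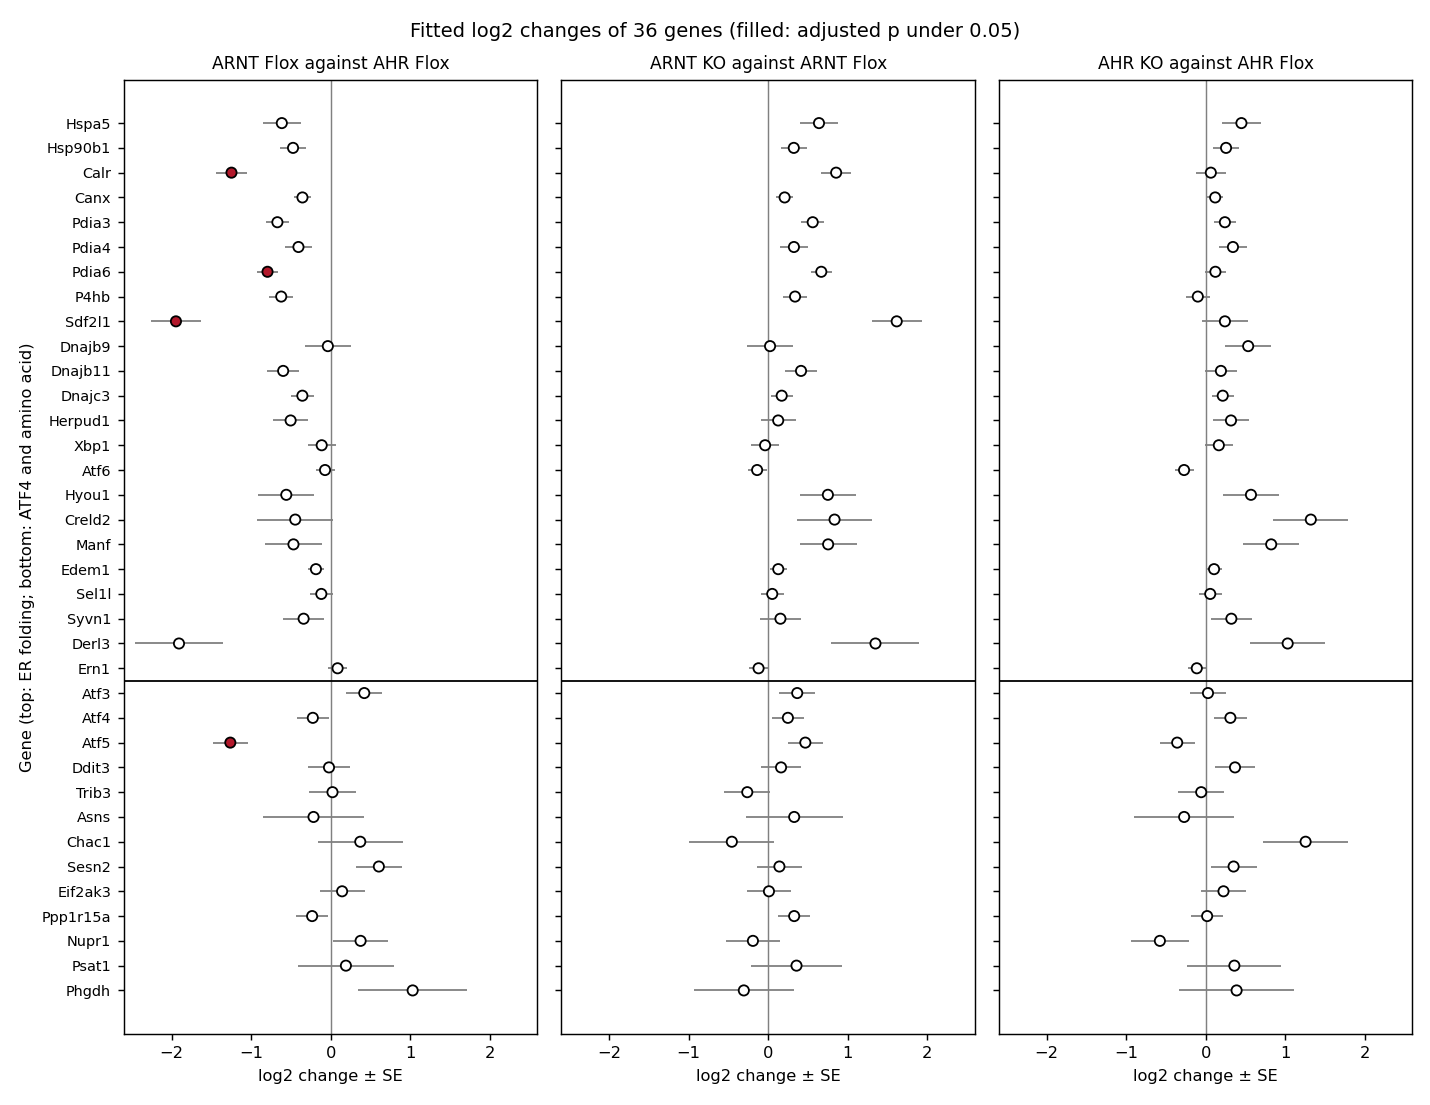
Fitted log2 change ± SE (horizontal axes) of the 36 genes (rows), with ARNT Flox against AHR Flox on the left, ARNT KO against its ARNT Flox controls in the middle and AHR KO against its AHR Flox controls on the right, with filled points for an adjusted p under 0.05. Filled points occur only in the left panel, for Calr, Pdia6, Sdf2l1 and Atf5, all below 0.

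ARNT KO livers were set against ARNT Flox livers to ask what loss of ARNT changes, and in this comparison no member passed the threshold of edgeR's test or of limma-voom. The ER genes nevertheless lay mostly above 0. Log2 changes were positive for 20 of 23, with a median of 0.32, against 0.01 over all genes tested. In 13 of the 23 every ARNT KO library was above every ARNT Flox library and in 0 every one was below, where 5.94% of all genes had the higher arrangement and 4.9% the lower. At an unadjusted p under 0.05 there were 7 of 23, all higher, against 5.88% of all genes in either direction, and 0.0573% of all genes (8) passed the adjusted threshold. Without ARNT KO replicate 3, 20 of 23 were above 0 (median 0.45), 15 had both ARNT KO libraries above every ARNT Flox library and 1 (Ern1) had both below, and 11 were higher at an unadjusted p under 0.05; over all genes 19% and 18.6% had those arrangements and 16.4% were past that mark. Without ARNT KO replicate 1 the median was 0.18. This comparison shares the ARNT Flox libraries with the comparison of the control lines, so low values in those 3 libraries enter both, and each is given only as its own values.

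Sdf2l1 was at 13.7, 9.66 and 10.9 CPM in ARNT KO, against 3.75, 3.73 and 3.69 CPM in ARNT Flox, a log2 change of 1.62 ± 0.31 (adjusted p = 0.228). Every ARNT KO value was above every ARNT Flox value. Pdia6 was at 203, 172 and 184 CPM in ARNT KO, against 123, 114 and 114 CPM in ARNT Flox (0.67 ± 0.13, adjusted p = 0.228). Calr was at 612, 433 and 355 CPM in ARNT KO, against 268, 258 and 247 CPM in ARNT Flox (0.85 ± 0.19, adjusted p = 0.350). Pdia3 was at 417, 297 and 299 CPM in ARNT KO, against 232, 227 and 228 CPM in ARNT Flox (0.56 ± 0.14, adjusted p = 0.484). None of these 3 overlapped either, and replicate 1 was the highest ARNT KO library in Sdf2l1, Pdia6, Calr and Pdia3 alike. Hspa5 was at 601, 379 and 448 CPM in ARNT KO, against 296, 303 and 318 CPM in ARNT Flox (0.64 ± 0.24, adjusted p = 0.739). P4hb was at 1478, 1373 and 1113 CPM in ARNT KO, against 1041, 1084 and 1011 CPM in ARNT Flox (0.34 ± 0.15, adjusted p = 0.819). Derl3 was at 1.58, 0.921 and 0.976 CPM in ARNT KO, against 0.447, 0.344 and 0.587 CPM in ARNT Flox (1.35 ± 0.55, adjusted p = 0.792). These did not overlap, and replicate 1 was again the highest.

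Among ARNT KO mice, replicate 1 held the highest value for 20 of the 23 ER genes, at a median of 1.27 times the mean of the other two. ARNT KO replicate 3, the library that stood apart, was below the mean of its group mates for most ER genes and above that mean in 5 of 23, with a median ratio of 0.893. Without that library 3 members passed: Calr (log2 change 1.02 ± 0.17, adjusted p = 0.0137), Pdia6 (0.68 ± 0.14, adjusted p = 0.0422) and Sdf2l1 (1.65 ± 0.35, adjusted p = 0.0462). Of all genes, 1.37% passed in that fit, against 0.0573% with all 12 libraries. Without AHR KO replicate 3, Sdf2l1 alone passed, as did 0.0494% of all genes. In all 12 libraries DESeq2 called Calr, Pdia3, Pdia6 and Sdf2l1, and 0.401% of all genes. Over all 21 alternatives the adjusted p ran from 0.00662 to 0.999 for Calr, from 0.00104 to 0.826 for Pdia6 and from 0.000266 to 0.912 for Sdf2l1.

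AHR KO livers were set against AHR Flox livers to ask what loss of AHR changes, and no member passed here either, with edgeR, DESeq2 or limma-voom. Log2 changes were above 0 for 20 of the 23 ER genes, with a median of 0.24, against 0.01 over all genes tested, but this rested on 1 library. Without AHR KO replicate 3 the median was 0.01 and 12 of 23 were above 0. In all libraries, 3 ER genes were higher and 1 lower at an unadjusted p under 0.05, against 11.9% of all genes in either direction, and 0.0788% of all genes (11) passed the adjusted threshold. Every AHR KO library was above every AHR Flox library for 3 ER genes (Hsp90b1, Pdia4 and Edem1) and below for 0. Across all genes those arrangements made up 11.7% and 9.46%, so the ER share of 3 in 23 was close to the background.

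AHR KO replicate 3 carried high levels of ER stress genes. It was the highest AHR KO library for 22 of the 23 ER genes and exceeded the mean of the other two for all 23, at a median ratio of 1.38 and a range of 1.01 for Edem1 to 4.04 for Creld2. Creld2, an ER-resident protein known to be induced by ER stress, was at 23.9, 18.7 and 86.1 CPM in AHR KO, against 15.3, 16.4 and 19.9 CPM in AHR Flox (log2 change 1.32 ± 0.47, adjusted p = 0.292). The third value stood far above the rest, and without it the change was 0.31 ± 0.24. Manf, a secreted cofactor of Hspa5, was at 46.1, 37.9 and 113 CPM in AHR KO, against 39.8, 30.7 and 40.7 CPM in AHR Flox (0.82 ± 0.36, adjusted p = 0.391). Hyou1, the nucleotide exchange factor of Hspa5, was at 77.2, 63.5 and 190 CPM in AHR KO, against 79.0, 64.5 and 79.4 CPM in AHR Flox (0.57 ± 0.35, adjusted p = 0.565). Replicates 1 and 2 lay within or close to the AHR Flox range for both genes.

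Replicate 3 was also the highest AHR KO library for Dnajb9, Syvn1, Derl3, Hspa5 and Herpud1, whereas the degradation gene Edem1, at 232, 253 and 245 CPM, was highest in replicate 2. Dnajb9 was at 63.6, 49.4 and 139 CPM in AHR KO, against 52.0, 59.8 and 62.0 CPM in AHR Flox (log2 change 0.53 ± 0.29, adjusted p = 0.499). Without replicate 3 its change was −0.04 ± 0.12. Syvn1, the ubiquitin ligase of ER-associated degradation, was at 54.0, 56.9 and 127 CPM in AHR KO, against 61.3, 64.6 and 64.4 CPM in AHR Flox (0.32 ± 0.26, adjusted p = 0.677). In Syvn1 replicates 1 and 2 were below every AHR Flox library. Derl3 was at 2.77, 2.14 and 5.58 CPM in AHR KO, against 2.18, 0.615 and 2.36 CPM in AHR Flox (1.03 ± 0.47, adjusted p = 0.418). Hspa5 was at 508, 467 and 943 CPM in AHR KO, against 471, 436 and 497 CPM in AHR Flox (0.45 ± 0.24, adjusted p = 0.501), and its change was 0.05 ± 0.17 without replicate 3. Herpud1 was at 694, 541 and 853 CPM in AHR KO, against 454, 609 and 610 CPM in AHR Flox (0.32 ± 0.22, adjusted p = 0.623). Of the sensor and factor genes in replicate 3, Xbp1 was 1.31 times, Ern1 1.34 times, Atf6 1.27 times and Eif2ak3 2.26 times the mean of the other two AHR KO libraries, while the folding genes Canx, P4hb and Pdia3 were at 1.15, 1.23 and 1.24 times. Atf6 was at 75.8, 60.5 and 86.4 CPM in AHR KO, against 85.2, 84.5 and 99.1 CPM in AHR Flox (−0.27 ± 0.12, adjusted p = 0.400). That was the lowest change among the ER genes in this comparison. Pdia4 was at 193, 196 and 274 CPM in AHR KO, against 178, 163 and 182 CPM in AHR Flox (0.34 ± 0.17, adjusted p = 0.463). Its groups did not overlap, and replicate 3 was the highest.

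The difference between the knockout effects, ARNT minus AHR, was tested as an interaction, and 0 members passed with edgeR, DESeq2 or limma-voom. Of all genes, 0.043% (6 genes) passed the adjusted threshold and 9.51% had an unadjusted p under 0.05. In that last sense 4 members were higher and 1 lower. The effect on Sdf2l1 was larger in ARNT KO by 1.37 ± 0.43 log2 units (adjusted p = 0.335), on Calr by 0.79 ± 0.27 (adjusted p = 0.392), on Pdia6 by 0.55 ± 0.18 (adjusted p = 0.388) and on Atf5 by 0.83 ± 0.31 (adjusted p = 0.436). Chac1 differed the other way, by −1.71 ± 0.75 (adjusted p = 0.501). The ARNT Flox libraries, low in Sdf2l1, Calr, Pdia6 and Atf5 against AHR Flox, enter this difference too. The difference is therefore not independent of the comparison of the control lines. Atf5 passed without ARNT KO replicate 3, with a difference of 1.06 ± 0.23 (adjusted p = 0.0476, within 0.0461 to 0.738 over 20 alternatives). The medians were 0.07 over the ER genes and −0.06 over the genes linked to ATF4, against 0.01 over all genes tested, and without AHR KO replicate 3 they were 0.36 and 0.18.

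Of the 13 genes linked to ATF4, Atf5 was the only one called, and only between the control lines. Their median log2 change was 0.16 in ARNT KO against ARNT Flox, 0.22 in AHR KO against AHR Flox and 0.14 in ARNT Flox against AHR Flox, with 9, 9 and 8 of 13 above 0. At an unadjusted p under 0.05 there were 0, 1 (Chac1, higher) and 1 (Atf5, lower), against 5.88%, 11.9% and 19.9% of all genes. With 13 genes, counts this small do not set the members apart from the background. The medians depended on single libraries: the value for ARNT KO was −0.19 without ARNT KO replicate 3, and the value for AHR KO was 0.03 without AHR Flox replicate 2.

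Of the transcription factors, Atf5 was the called gene. It was at 132, 127 and 147 CPM in ARNT Flox, against 389, 253 and 331 CPM in AHR Flox (2.40-fold lower, log2 change −1.26 ± 0.22, adjusted p = 0.0450). No ARNT Flox value reached the lowest AHR Flox value. In ARNT KO it was at 223, 215 and 123 CPM (log2 change against ARNT Flox 0.47 ± 0.22, adjusted p = 0.839). Replicates 1 and 2 were above the ARNT Flox range and replicate 3 below it. In AHR KO it was at 209, 272 and 279 CPM (log2 change against AHR Flox −0.36 ± 0.22, adjusted p = 0.565), overlapping AHR Flox. Atf4, the factor at the centre of this arm, whose control is largely translational, was at 93.2, 104 and 62.1 CPM in ARNT KO, 73.3, 76.2 and 68.5 CPM in ARNT Flox, 117, 95.4 and 103 CPM in AHR KO, and 105, 88.2 and 61.1 CPM in AHR Flox. Its log2 changes were 0.25 ± 0.20 in ARNT KO and 0.31 ± 0.20 in AHR KO, with overlap in both pairs. Ddit3 (CHOP), the factor tied to cell death under lasting stress, was at 6.61, 5.34 and 9.42 CPM in ARNT KO, 5.89, 5.73 and 7.54 CPM in ARNT Flox, 6.31, 7.67 and 11.1 CPM in AHR KO, and 4.94, 7.31 and 7.16 CPM in AHR Flox. Its log2 changes were 0.16 ± 0.26 in ARNT KO and 0.37 ± 0.26 in AHR KO, and in both knockouts replicate 3 was the highest. Atf3, an early stress factor, ranged from 3.35 CPM in AHR KO replicate 3 to 8.60 CPM in ARNT KO replicate 1. Its log2 change in ARNT KO was 0.37 ± 0.22 (adjusted p = 0.911), with overlap. Eif2ak3 was at 12.6, 13.6 and 29.6 CPM in AHR KO, against 17.6, 12.8 and 17.4 CPM in AHR Flox (0.22 ± 0.28), again with replicate 3 apart.

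Of the effectors and enzymes, Chac1, which degrades glutathione and is known as a target of ATF4, was at 13.3, 3.88 and 12.1 CPM in AHR KO, against 5.62, 1.47 and 5.18 CPM in AHR Flox (log2 change 1.26 ± 0.53, adjusted p = 0.378). Replicate 2 was the lowest in both groups, and the ranges overlapped. In ARNT KO it was at 5.83, 3.24 and 2.47 CPM, against 4.82, 4.16 and 6.91 CPM in ARNT Flox (−0.46 ± 0.53, adjusted p = 0.995). Sesn2, a stress-induced inhibitor of mTORC1 signalling, was at 15.2, 19.8 and 24.3 CPM in ARNT Flox, against 13.4, 12.4 and 13.1 CPM in AHR Flox (0.61 ± 0.29, adjusted p = 0.267). It was the only member with every ARNT Flox library above every AHR Flox library, an arrangement that 18.1% of all genes had. Sesn2 was also at 19.4, 16.3 and 14.0 CPM in AHR KO, all above AHR Flox (0.35 ± 0.29, adjusted p = 0.691), as were 11.7% of all genes. Ppp1r15a, which directs the phosphatase that reverses eIF2-alpha phosphorylation, was at 12.1, 14.8 and 13.9 CPM in ARNT KO, against 11.4, 11.3 and 9.80 CPM in ARNT Flox (0.33 ± 0.20, adjusted p = 0.911). It was the only one of the 13 in which the ARNT KO libraries all exceeded the ARNT Flox libraries. Of all genes, 5.94% had that arrangement, so 1 of 13 was close to the background. Trib3, a pseudokinase that dampens ATF4 signalling, ranged from 4.21 to 8.55 CPM over the 12 libraries and Nupr1, a small stress-induced nuclear protein, from 0.878 to 2.67 CPM. The log2 change of Nupr1 in AHR KO was −0.58 ± 0.36 (adjusted p = 0.579), with overlap.

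ARNT KO replicate 3 differed from its group mates in this arm in both directions. Against the mean of ARNT KO replicates 1 and 2, it held 5.13 times the Phgdh, 3.44 times the Psat1, 2.33 times the Asns, 2.23 times the Sesn2 and 1.91 times the Nupr1. The first 3 of these rest on 28, 51 and 14 counts in that library. It held 0.630 times the Atf4, 0.561 times the Atf5 and 0.544 times the Chac1. The cystine transporter Slc7a11, another target of ATF4, which was not among the members, was at 2.27 CPM there and at most 0.248 CPM in the other 11 libraries. This value was singled out after it was seen. Markers of some other cells were also high in that library against ARNT KO replicates 1 and 2. Cholangiocyte markers summed to 310 CPM, against 46.0 and 80.4 CPM, with 280 CPM from Spp1 alone. Stellate cell markers summed to 570 CPM, against 265 and 357 CPM, and macrophage markers to 1081 CPM, against 641 and 689 CPM. Endothelial markers (276 CPM, against 252 and 280) and lymphocyte markers (16.6 CPM, against 13.5 and 17.4) lay between those of replicates 1 and 2. Hepatocyte markers were lower, at 33586 CPM, against 45481 and 45380 CPM. The part of these markers in these values was not tested. AHR KO replicate 3 was above the mean of its mates in 9 of the 13 genes of this arm. The median ratio was 1.38, as it was for the 23 ER genes. Eif2ak3 was at 2.26 times, Ddit3 at 1.58 times and Trib3 at 1.43 times. That library was below the mean of its mates in Atf3 (0.680 times), Ppp1r15a (0.777 times), Sesn2 (0.782 times) and Atf4 (0.974 times).

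Other genes of the same pathways were counted from lists of related genes. Of 46 further genes of ER folding and quality control, 1 was called in ARNT Flox against AHR Flox, the ER cyclophilin Ppib, which fell (35.5, 38.9 and 37.7 CPM in ARNT Flox, against 52.2, 48.3 and 51.5 CPM in AHR Flox, log2 change −0.44 ± 0.07, adjusted p = 0.0307). In that list 23 genes had every ARNT Flox library below every AHR Flox library and 1 had the reverse, with a median log2 change of −0.13, where 17.7% and 18.1% of all genes had those arrangements and 0.329% were called. The ER translocon subunit Sec61b was next, at 31.1, 32.7 and 33.7 CPM in ARNT Flox, against 45.2, 37.9 and 41.6 CPM in AHR Flox (−0.36 ± 0.09, adjusted p = 0.106). In the same list no gene was called in either knockout, where the medians were 0.15 in ARNT KO and 0.11 in AHR KO. Of 33 further ATF4 targets, 14 other regulators of the response, 13 eIF2-alpha kinases and translation factors, and 8 mitochondrial stress genes, 0 were called in any comparison, and their median log2 changes in the knockouts and between the control lines ran from −0.14 to 0.09. Gars, the glycyl-tRNA synthetase gene, had the smallest adjusted p of the ATF4 targets between the control lines (−0.28 ± 0.06, adjusted p = 0.0731). Of 16 cytosolic heat shock genes 0 were called, but 15 were below 0 in ARNT Flox against AHR Flox (median −0.39), as in Ahsa1, an activator of the chaperone HSP90 (55.9, 63.7 and 67.0 CPM in ARNT Flox, against 82.3, 87.8 and 90.6 CPM in AHR Flox, −0.48 ± 0.10, adjusted p = 0.0682). Gdf15 and Fgf21, secreted signals known to respond to this arm, did not pass in the knockouts. Gdf15 was at 38.9, 7.88 and 27.7 CPM in ARNT KO, against 13.9, 15.7 and 14.0 CPM in ARNT Flox, and Fgf21 was at 1.2, 1.75 and 10.2 CPM in AHR KO, against 5.04, 2.46 and 6.63 CPM in AHR Flox.

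Markers of hepatocytes and of other cells were compared beside these results. Hepatocyte markers summed to 33586 to 45481 CPM in ARNT KO, 35285 to 40614 CPM in ARNT Flox, 47485 to 50847 CPM in AHR KO and 41491 to 44563 CPM in AHR Flox. Of the 12 tested, 10 had log2 changes below 0 in ARNT Flox against AHR Flox (median −0.22). For 5 of the 12, every ARNT Flox library lay below every AHR Flox library, as for 17.7% of all genes. The 12 lymphocyte markers summed to 13.3 to 19.0 CPM in ARNT Flox, against 9.44 to 12.6 CPM in AHR Flox, and all 12 had log2 changes above 0 (median 0.66). The 11 macrophage markers summed to 797 to 819 CPM in ARNT Flox, against 509 to 775 CPM in AHR Flox, with 10 of 11 above 0 (median 0.40), and the 8 stellate cell markers to 350 to 424 CPM in ARNT Flox, against 231 to 323 CPM in AHR Flox, with 8 of 8 above 0 (median 0.39). None of these markers was called. The lymphocyte, macrophage and stellate cell markers thus moved opposite to the ER folding genes between the control lines. Most hepatocyte markers moved in the same direction as the ER folding genes. The part of any of these markers in the result was not tested. Plasma cells and pancreatic acinar cells are both rich in ER chaperones. The plasma cell gene Igj was at 5.14, 8.32 and 8.59 CPM in AHR KO, against 2.69, 1.78 and 2.07 CPM in AHR Flox (log2 change 1.75 ± 0.33, adjusted p = 0.0769). Of the 5 plasma cell markers tested, 3 were above 0 and 2 below in that comparison (median 0.10), with Irf4 at −0.34 ± 0.41. The listed markers summed to 267 to 319 CPM in AHR KO, against 260 to 295 CPM in AHR Flox. That sum was almost all from the marker Sdc1, with 6178 to 9694 counts per library, against 42 to 274 for Igj. It therefore does not show the level of the other markers. Tnfrsf17 had 0 or 1 count in every library. Of the 11 acinar markers, 2 (Cel and Amy2a5) had 0 counts in every library, and 7 more had at most 4 counts in any library. The elastase genes Cela1 and Cela2a were the acinar markers with more counts. Cela1 had 505, 431 and 298 counts in ARNT KO, 235, 212 and 202 in ARNT Flox, 478, 361 and 424 in AHR KO, and 418, 369 and 341 in AHR Flox. It thus lay in the same direction as most ER genes between the control lines (log2 change −0.89 ± 0.20, adjusted p = 0.0802, no overlap) and in ARNT KO (0.78 ± 0.20, adjusted p = 0.479, no overlap), and was level in AHR KO (−0.02 ± 0.19). Cela2a, with 9 to 42 counts per library, went the other way, at 0.76 ± 0.40 between the control lines, −0.37 ± 0.38 in ARNT KO and 0.70 ± 0.40 in AHR KO. The part of these markers in the results was not tested.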

How the data were processed

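Poly-A RNA from 12 mouse livers was sequenced, 3 libraries in each of 4 genotypes. The deposited values are raw counts, 1 row per gene symbol, with no normalization by the authors. Per the submitters' processing notes, the genome was mm10 and the tools included DESeq2 1.20.0 under R 3.5.1, the aligner STAR (2.5.4b, 2.6.0c) and bcl2fastq 2.20. The sources used here do not give the counting tool or strand setting, so overlapping or near-identical genes could share reads.

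Genes were kept by filterByExpr (minimum count 10, minimum total 15), which left 13968 genes with 99.98% of the counts. All 12 libraries were fitted in edgeR 4.0.16 (R 4.3.3) with TMM scaling, a mean per group and no covariate, and tested with the quasi-likelihood F test, two-sided, with Benjamini-Hochberg adjustment over all genes and a threshold of 0.05. The biological coefficient of variation, common to all genes, was 17.4%. Log2 changes carry the SE of the fit, and deviations use log2(CPM + 0.5). Each library is labelled as a separate mouse, and total counts were 23585909 to 33255004; floors cover counting error only. Levels per kb used merged exon lengths of GENCODE; gene positions and promoters are RefSeq GRCm38.p6. The fit was tested on simulated data.

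In each comparison, the single genes refitted by name were the called members and, per arm, up to 6 with the smallest p. Hspa5, Xbp1, Atf4 and Ddit3 were refitted too. The changes printed in the results are not limited to these genes and do not include all of them. The members, the lists and these rules were chosen with earlier results of these data known. Same-numbered libraries of the control lines had r of 0.327, 0.153 and 0.101 across genes, and those of the knockout pairs −0.0370 to 0.141. The smallest r of the control lines lay within the knockout range, and libraries of different numbers were not compared. These r values therefore do not show that the control lines are paired. The main fit used no pairing, and the replicate block, an alternative, was fitted to all 12 libraries. Alternatives were DESeq2 1.42.0, limma-voom (limma 3.58.1) with and without sample quality weights, other size factors, no filter, TMM without the 50 most abundant genes, the groups of each comparison alone, the replicate block and leaving out each library. Leaving out ARNT KO replicate 3 and AHR KO replicate 3 together was added after the data were seen.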

Additional observations from a re-analysis of the deposited data

How the results depend on the processing

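Of 1222 refits of single named genes, 27 turned sign. Between the control lines Sdf2l1 kept its call under 15 of 21 alternatives, Calr and Pdia6 under 16 and Atf5 under 9, and none of these 4 turned sign. Between the control lines the count of 4 members called was 8 with DESeq2, 2 with limma-voom, 13 with sample quality weights, 17 with those 6 libraries alone, 3 with the replicate block, and 0 to 14 when libraries were left out. Over all genes the share called, 0.329% in the main fit, was 4.10%, 0.222%, 17.1%, 11.9% and 0.165% in the first 5 of these settings. The count of 14 came without ARNT KO replicate 3 and AHR KO replicate 3, where 12.4% of all genes were called. In ARNT KO against ARNT Flox the count of 0 was 4 with DESeq2 (0.401% of all genes called), 5 with sample quality weights (3.02%) and 0 to 5 with libraries left out. The 5 came without both of those replicates (1.77% of all genes). For the difference between the knockout effects the count was 1 with sample quality weights (1.70% of all genes called) and 0 to 1 with libraries left out. It was 1 without ARNT KO replicate 3 (1.38%) and without both replicates (0.805%). The replicate block changed no call but that of Atf5 between the control lines. The causes were not tested, except that fewer samples enter when libraries are left out.

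With libraries left out, the median log2 change of the ER genes ran from 0.0145 to 0.33 in AHR KO, from 0.18 to 0.45 in ARNT KO and from −0.0542 to 0.37 for the difference. That of the genes linked to ATF4 ran from 0.0327 to 0.29 in AHR KO, from −0.19 to 0.26 in ARNT KO (−0.10 with sample quality weights) and from −0.13 to 0.18 for the difference. Single genes with small changes turned sign. With sample quality weights the changes in ARNT KO were 0.0430 for Trib3, 0.0824 for Xbp1 and −0.0986 for Ddit3, and the difference for Atf4 was 0.0904. With libraries left out, ARNT KO gave −0.43 to 0.0320 for Trib3, −0.15 to 0.12 for Xbp1 and −0.0885 to 0.33 for Ddit3, and AHR KO gave −0.0438 to 0.79 for Dnajb9. The difference ran from −0.77 to 0.0707 for Dnajb9, −0.00364 to 0.63 for Hspa5, −0.38 to 0.0283 for Xbp1, −0.24 to 0.14 for Atf4 and −0.45 to 0.0594 for Ddit3. Between the control lines the ranges were −0.27 to 0.0730 for Xbp1 and −0.19 to 0.0708 for Ddit3. Depth limits Asns, Phgdh and Psat1, which had as few as 3 to 6 counts in a library. Over all genes, the counts called of 46 between the control lines, 8 in ARNT KO, 11 in AHR KO and 6 for the difference were 572, 56, 359 and 148 with DESeq2 and 1532, 193, 136 and 194 without ARNT KO replicate 3.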
